A study of Mus musculus with 71 samples.

Results

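The genes described here are the cell cycle regulators that act around the passage from G1 into S phase: the D-type cyclins Ccnd1, Ccnd2 and Ccnd3, the E-type cyclins Ccne1 and Ccne2, the CDK inhibitors Cdkn1a, Cdkn1b and Cdkn1c, and the pocket proteins Rbl1 and Rbl2. They were chosen by name, with earlier results of these data known, and are 10 of the 37620 genes in the deposited count table. Each of the 10 passed the filter on low counts in every tissue. The series sequenced RNA of C57BL/6 mouse embryos at embryonic day 9.5, with 20 to 22 somites, that carry 1 of 8 alleles of miR-17~92, a cluster of microRNAs processed from 1 transcript. The full knockout lacks the whole cluster. The single-family alleles remove miR-17 with miR-20a (Δ17), miR-18a (Δ18), miR-19a with miR-19b-1 (Δ19) or miR-92a-1 (Δ92). Δ17,18 and Δ17,18,92 combine those losses, and wild type keeps the cluster. Tail bud, heart and the remaining embryo (rest of embryo in the plots) were dissected, giving 24 groups with 3 libraries each, apart from the remaining embryo of Δ17,18,92 with 2. The series text calls the libraries of a group biological replicates. Whether a library came from 1 embryo or a pool, and how many copies of an allele an embryo carried, are not given in the sources used here. Mature microRNAs were not measured in these libraries, and the 6 hairpin genes of the cluster were listed at 0 throughout. The host transcript Mir17hg stood higher in the full knockout than in wild type. In CPM, counts scaled to the library size, it had 354 to 361 against 111 to 142 in tail bud. Heart had 137 to 145 against 38.1 to 42.1, and the rest 426 to 463 against 154 to 161. Neither the hairpin genes nor the host transcript thus checks a label. RNA came from whole tissue, so fewer cells of a type and less RNA per cell cannot be told apart.

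D-type cyclins bind CDK4 and CDK6 and begin the phosphorylation of the pocket proteins, the family of the retinoblastoma protein, which hold E2F transcription factors inactive. E-type cyclins bind CDK2, complete that phosphorylation and start DNA replication, and their genes are themselves E2F targets. Cdkn1a (p21), Cdkn1b (p27) and Cdkn1c (p57) inhibit the cyclin and CDK complexes, and Rbl1 (p107) and Rbl2 (p130) are pocket proteins that bind mainly the repressive E2Fs. A microRNA recognises a target through its seed, bases 2 to 8 from its 5′ end, and represses the transcripts it pairs with, usually in the 3′ untranslated region. The miR-17 family is known from cultured human and mouse cells for targeting E2f1, Ccnd1, Cdkn1a and Rbl2.

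The 6 microRNAs of the cluster fall into 4 families by their seeds, and their mature sequences are given because the families define the alleles. They are written 5′ to 3′ from RefSeq (GRCm38.p6, plus strand of chromosome 14), with the seed in capitals.
miR-17-5p: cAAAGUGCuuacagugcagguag
miR-20a-5p: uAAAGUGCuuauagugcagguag
miR-18a-5p: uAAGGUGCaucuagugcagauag
miR-19a-3p: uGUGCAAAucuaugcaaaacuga
miR-19b-3p: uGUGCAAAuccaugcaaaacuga
miR-92a-3p: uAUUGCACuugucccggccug
The first and the last of them lie at chr14:115043684-115043706 and chr14:115044476-115044496. The miR-17 and miR-20a sequences share the seed AAAGUGC, which differs from that of miR-18a, AAGGUGC, by 1 base. Loss of a family means below the loss of its members in this cluster. Whether microRNAs with the same seeds were made from other loci was not examined.

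The longest annotated 3′ untranslated region of each gene (GENCODE, GRCm38) was searched on the transcript strand for the reverse complement of the seeds, as 7 bases or as 8 bases with a following A: GCACTTT and GCACTTTA for miR-17, GCACCTT and GCACCTTA for miR-18, TTTGCAC and TTTGCACA for miR-19, and GTGCAAT and GTGCAATA for miR-92. Of the 10 genes, 8 held a match of at least 1 family. A miR-17 match stood in 5 of the 10, against 12.1% of 19740 genes with such a region, a miR-19 match in 3 against 11.4%, a miR-92 match in 3 against 6.68%, and a miR-18 match in 0 against 7.93%. The regions of the 10 genes ran from 531 to 5173 bases with a median of 1506 bases, while the median of all genes was 986 bases. Ccnd3 and Ccne1 held no match in regions of 915 and 531 bases. The matches referred to below are shown 5′ to 3′ with the matched bases in capitals. In an 8-base match these include the following A, which lies outside the reverse complement of the seed.
Ccnd1, miR-17: cattccatttcaaaGCACTTTtggt
Ccnd1, miR-19: acaacagtaggtaaTTTGCACAcctc
Ccnd2, miR-17: attccattagaaaaGCACTTTgaaa
Ccnd2, miR-19: tttgttttttttttTTTGCACAatta
Ccne2, miR-92: tatactcttgaatgGTGCAATttgt
Cdkn1a, miR-17: ctcagacctgaataGCACTTTggaa
Rbl1, miR-17: tttgcctgatcaaaGCACTTTtgga
Rbl2, miR-17, upstream: ctgtgtaattggtgGCACTTTAtggc
Rbl2, miR-17, downstream: gtatatttatgatgGCACTTTctat
Rbl2, miR-92: tacagtgtgaaagcGTGCAATgtct
Of these, 3 were 8-base matches: miR-19 in Ccnd1 and Ccnd2, and the upstream miR-17 match in Rbl2. Cdkn1b held a miR-19 match (chr6:134922262-134922268) and Cdkn1c a miR-92 match (chr7:143458863-143458869), each of 7 bases. A match is a stretch of letters and was not tested as a binding site.

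Library totals ran from 13532012 to 27477273 counts, and the median count of the 10 genes ran from 274 for Rbl2 to 20036 for Ccnd2. Replicates varied with a biological coefficient of variation of 8.74% (tail bud), 8.87% (heart) and 6.47% (remaining embryo). The 8 cardiomyocyte markers summed to between 31436 and 37944 CPM in the hearts, against 20.8 to 45.4 in tail buds and 204 to 658 in the remaining embryo. The 8 tail bud markers summed to between 655 and 1027 CPM in tail buds, against 6.77 to 20.2 in hearts and 29.4 to 44.9 in the remaining embryo. One heart library, Δ17,18 replicate 2, stood far from its mates, and its 25 other G1/S genes summed to 1632 CPM, the lowest of the hearts. Another, tail bud wild-type replicate 3, had the highest such sum of the tail buds, at 3007 CPM against 2756 and 2759 in its mates, and a cardiomyocyte sum of 40.0 CPM against 25.0 and 31.4. Calls that ended without either library are given with that value.

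In wild-type embryos most of the 10 genes differed between the dissected tissues. For this comparison the 9 wild-type libraries were scaled together, so their CPM differ from those given further on, which were scaled within a tissue. Heart differed from tail bud in 8 of 10 genes (6 higher, 2 lower), where 68.6% of 16922 genes tested passed the threshold of adjusted p under 0.05 (edgeR quasi-likelihood test, Benjamini-Hochberg), and from the remaining embryo in 9 of 10 (7 higher, 2 lower) against 68.1%. Tail bud differed from the remaining embryo in 5 of 10 (2 higher, 3 lower) against 29.8%. The shares of the 10 genes were thus near or somewhat above those of all genes.

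The largest of these differences was in Cdkn1c, whose product p57 restrains cyclin and CDK complexes and is expressed in trabecular myocardium. It stood at 1142, 1213 and 1179 CPM in the 3 wild-type hearts, against 101, 94.7 and 128 CPM in tail buds and 121, 126 and 131 CPM in the remaining embryo. The log2 difference was 3.45 ± 0.10 over tail bud (adjusted p = 1.13e-11) and 3.22 ± 0.10 over the remaining embryo (adjusted p = 2.35e-11), which corresponds to 10.9-fold and 9.33-fold. Tail bud against the remaining embryo was −0.23 ± 0.10 (adjusted p = 0.0924), and with the replicate number as a block the adjusted p was 0.0478. The D cyclins took opposite positions. Ccnd1 was lower in heart, at 109, 101 and 106 CPM against 350.4, 332 and 365 CPM in tail bud and 305, 309 and 293 CPM in the rest, with log2 differences of −1.73 ± 0.06 and −1.52 ± 0.06 (adjusted p = 2.67e-11 and 9.46e-11). Ccnd2 was higher in heart, at 1625, 1783 and 1949 CPM against 525, 539 and 486 CPM in tail bud and 907, 961 and 884 CPM in the rest, with log2 differences of 1.79 ± 0.08 and 0.96 ± 0.08 (adjusted p = 3.83e-10 and 1.50e-07). Neither gene's hearts overlapped the other tissues. Tail bud exceeded the remaining embryo in Ccnd1 (0.21 ± 0.05, adjusted p = 0.0112), a call that ended without wild-type rest of embryo replicate 3 (0.0590), and lay below it in Ccnd2 (−0.83 ± 0.08, adjusted p = 2.74e-06).

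Ccnd3, Cdkn1b and Rbl2 were also higher in heart than in both other tissues. Ccnd3 averaged 205 ± 4.43 CPM in heart, 120.3 ± 2.87 CPM in tail bud and 115 ± 3.44 CPM in the rest (SD, n = 3 each), with log2 differences of 0.77 and 0.83 for heart. Cdkn1b averaged 59.5 ± 1.23 CPM in heart, 26.3 ± 1.49 in tail bud and 48.1 ± 1.98 in the rest, with differences of 1.18 and 0.31, and tail bud stood at −0.87 against the rest. Rbl2, the least abundant of the 10, averaged 17.0 ± 1.58 CPM in heart, 8.83 ± 1.90 in tail bud and 10.4 ± 1.4 in the rest, with differences of 0.93 and 0.71. Each of these differences passed. The E cyclins differed less. Ccne1 was lower in heart than in tail bud (−0.28 ± 0.07) and the rest (−0.52 ± 0.07), and lower in tail bud than in the rest (−0.24 ± 0.07, adjusted p = 0.016), where the last call ended without wild-type rest of embryo replicate 1 (0.0690). Ccne2 was higher in heart than in the rest (0.33 ± 0.08, adjusted p = 0.00293) and than in tail bud (0.21 ± 0.08, adjusted p = 0.0336), but the second call held in only 2 of the 9 fits that left out 1 library, with adjusted p up to 0.151. Cdkn1a was lowest in the remaining embryo, with 8.90, 8.97 and 9.80 CPM against 20.5, 16.4 and 17.1 CPM in heart and 23.5, 15.3 and 15.1 CPM in tail bud, and both differences passed (adjusted p = 0.000198 and 0.000602). Rbl1 passed in no pair of tissues, at −0.085 for heart against tail bud, −0.16 for heart against the rest and −0.080 for tail bud against the rest. With the replicate block, heart against the remaining embryo had an adjusted p of 0.0373 in Rbl1, where the fit without the block gave 0.0693.

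Levels per kilobase of exon use the union of all annotated exons of a gene. That length can exceed the transcript present and then lowers the value. It was 8775 bases for Ccnd3, whose longest 3′ untranslated region has 915 bases. The order of the genes depends on this length. On this scale Cdkn1c led in the wild-type heart with 578 ± 17.4 CPM per kilobase (SD, n = 3), followed by Ccnd2 with 189.8 ± 17.2. Ccne1 followed with 31.2 ± 3.27, ahead of Ccnd3 with 23.4 ± 0.505, Ccne2 with 23.2 ± 0.640 and Ccnd1 with 22.4 ± 0.868 CPM per kilobase, and the last 3 lay within about their spread of each other. In tail bud the order began with Ccnd1 at 74.1 ± 3.46, Ccnd2 at 54.9 ± 2.94 and Cdkn1c at 52.9 ± 8.71 CPM per kilobase, the last 2 within their spread, and in the remaining embryo with Ccnd2 at 97.5 ± 4.23, Ccnd1 at 64.2 ± 1.80 and Cdkn1c at 61.9 ± 2.44, the last 2 again within their spread. Rbl2 was last in all 3 tissues, with 2.25 ± 0.209, 1.17 ± 0.251 and 1.37 ± 0.185 CPM per kilobase in heart, tail bud and rest.

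**Figure D1:**
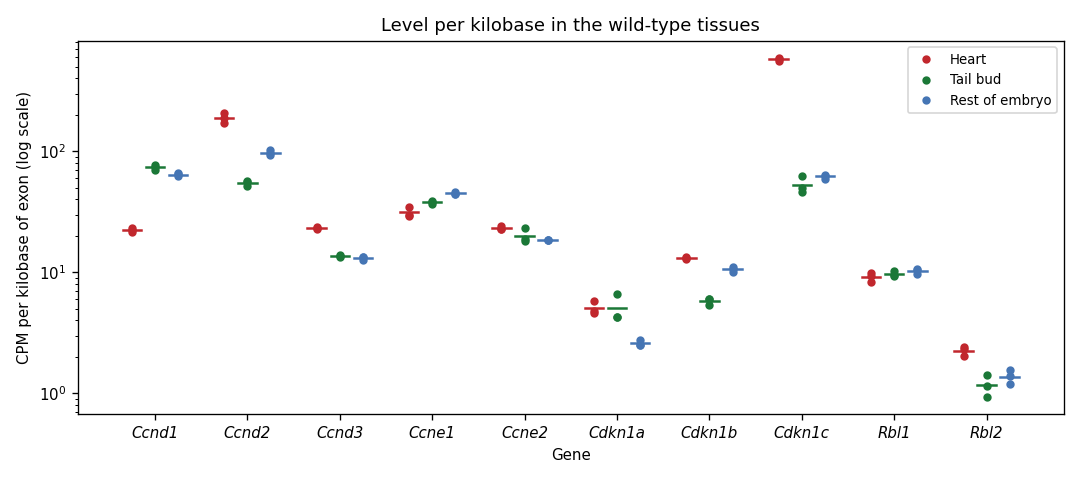
Level of each gene in the 9 wild-type libraries, with heart left of tail bud and the remaining embryo. Values are CPM per kilobase of the union of annotated exons, on a log scale. Points are libraries and lines are means of 3. Cdkn1c is 10.9-fold higher in heart than in tail bud, and Ccnd1 is lower in heart than in both other tissues.

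Across the 7 mutant genotypes and 3 tissues, 30 of the 210 comparisons of a gene with wild type passed, 12 of them higher and 18 lower, and they fell on 8 of the 10 genes. The 7 comparisons of a tissue share its 3 wild-type libraries. Full knockout tail bud changed in 3 of 10 genes (Ccnd1 higher, Ccnd3 and Ccne1 lower), where 10.4% of 17009 genes passed. Knockout heart changed in 3 of 10 (Ccnd2, Ccnd3 and Ccne1, all lower) against 3.91% of 16750, and knockout remaining embryo in 4 of 10 (Ccnd1 and Ccne2 higher, Ccnd3 and Ccne1 lower) against 6.66% of 17512. The median log2 fold change of the 10 genes in the knockout was 0.036 for tail bud, −0.0095 for heart and 0.053 for the rest, beside −0.0081, 0.0025 and −0.0032 over all genes tested. Δ17,18,92 changed 4 of 10 in tail bud (2 higher, 2 lower) against 5.57%, 1 in heart (lower) against 1.89% and 4 in the rest (2 higher, 2 lower) against 5.62%. Δ17,18 changed 3 of 10 in tail bud (2 higher, 1 lower) against 8.31%, 1 in heart (lower) against 1.12% and 3 in the rest (2 higher, 1 lower) against 4.44%. Without tail bud wild-type replicate 3 the 11 calls of that tissue came to 5, and without heart Δ17,18 replicate 2 the 5 calls of heart came to 4 (3 without Δ17,18 replicate 3).

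The alleles that remove a single family gave few calls. Δ17 gave 1 of 10 in the remaining embryo (Ccnd1, higher) against 1.56% of all genes, 0 in tail bud against 1.77% and 0 in heart against 0.555%. Δ19 gave 1 of 10 in tail bud (Ccne2, lower) against 1.03%, 2 in the rest (Ccnd3 and Ccne2, lower) against 1.88% and 0 in heart against 0.406%. Δ18 gave 0 in the 3 tissues, against 0.129% for tail bud, 0.0418% for heart and 0.36% for the rest, and Δ92 also 0, against 0.359%, 0.0716% and 0.588%. At an unadjusted p under 0.05 in the same edgeR fits, Δ17 had 4 genes in tail bud and 1 in heart, Δ18 had 4, 1 and 3 in tail bud, heart and rest, Δ19 had 2 in heart and Δ92 had 0 in each tissue. DESeq2 called 0 for each of these combinations, except Ccne1 in the remaining embryo of Δ18 and Cdkn1b in the heart of Δ19.

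Markers of other cells stood apart from wild type in some of the groups with calls, and their part in the results was not tested. In the remaining embryo of Δ17,18,92 the 8 cardiomyocyte markers summed to 449 and 658 CPM, against 279 to 356 CPM in wild type, the 6 endothelial markers to 425 and 454 CPM, against 379 to 398 CPM, and the 7 primitive erythroid markers to 2145 and 2210.0 CPM, against 2629 to 3912 CPM. In that of Δ17,18 the 6 markers of yolk sac endoderm summed to 42.1 to 48.0 CPM, against 55.2 to 437 CPM in wild type. Tail buds of Δ19 had 71.6 to 79.1 CPM of the 7 neural markers, against 55.7 to 66.9 CPM in wild type. Mutant hearts spread from 656 to 11537 CPM of the 7 primitive erythroid markers, against 962 to 2757 CPM in wild type. The median log2 fold change of these markers in heart ran from −0.36 in the full knockout to 1.69 in Δ18, with 1.62 in Δ19. In Δ18 and Δ19 hearts 0 of the 7 passed. The family terms of heart use these libraries.

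**Figure D2:**
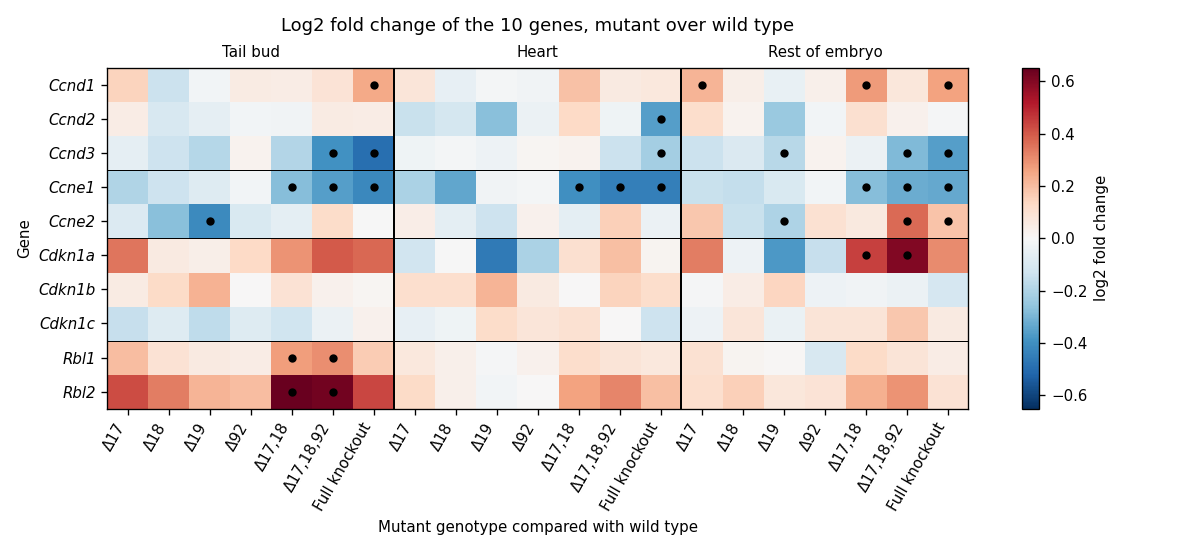
Log2 fold change of the 10 genes (rows) in each mutant genotype over wild type (columns, by tissue), with red for higher and blue for lower in the mutant. Dots mark the 30 comparisons with an adjusted p under 0.05 (edgeR). The 9 dots of Ccne1 and the 6 of Ccnd3 are all on blue, and the dots of Ccnd1, Cdkn1a, Rbl1 and Rbl2 are all on red.

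Ccnd1 encodes cyclin D1 (ENSMUSG00000070348, chr7:144929931-144939925, minus strand, GRCm38). It was higher in the full knockout in tail bud and in the remaining embryo, and 4 of its 21 mutant comparisons passed, all higher. In tail bud it stood at 459, 416 and 422 CPM in the knockout, against 364, 345 and 383 CPM in wild type. The 3 knockout libraries lay above the 3 wild-type libraries, and the log2 fold change ± SE was 0.25 ± 0.06 (adjusted p = 0.0118). That call ended without knockout replicate 1 (adjusted p = 0.0739) and when only the 2 groups were fitted (0.127). The remaining embryo gave 392, 396 and 383 CPM in the knockout, 385, 368 and 384 CPM in Δ17 and 389, 398 and 396 CPM in Δ17,18, against 329, 332 and 315 CPM in wild type. None of these mutant groups overlapped wild type, and the log2 fold changes were 0.26 ± 0.04 in the knockout (adjusted p = 7.72e-05), 0.22 ± 0.04 in Δ17 (adjusted p = 0.00183) and 0.28 ± 0.04 in Δ17,18 (adjusted p = 6.82e-05). Each of the 3 calls held in every fit that left out 1 library. In Δ17,18,92 the 2 libraries of this tissue, at 357 and 327 CPM, overlapped wild type (0.07 ± 0.05, adjusted p = 0.45). Knockout hearts had 100.1, 99.1 and 97.3 CPM, against 96.6, 90.2 and 95.6 CPM in wild type, all lower than the knockout, and did not pass (0.07 ± 0.09, adjusted p = 0.752). The end of Ccnd1 overlaps LTO1 on the opposite strand (median 402 counts beside 6854). Its untranslated region holds the miR-17 match shown above at chr7:144931676-144931682 and the miR-19 match at chr7:144931004-144931011.

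Ccnd2 encodes cyclin D2 (ENSMUSG00000000184, chr6:127125162-127152193, minus strand) and was lower in the full knockout heart. The hearts had 1328, 1211 and 1197 CPM in the knockout, against 1437, 1591 and 1755 CPM in wild type, without overlap, and the log2 fold change was −0.36 ± 0.10 (adjusted p = 0.0423). Its call held in 8 of the 24 fits that left out 1 heart library, with adjusted p = 0.102 and 0.18 without wild-type replicates 2 and 3, 0.156 and 0.148 without knockout replicates 2 and 3, and between 0.0517 and 0.0596 in the other 12 fits that lost it, which left out any replicate of Δ17, Δ18 or Δ92, Δ19 replicate 2 or 3, or Δ17,18 replicate 3. Δ19 hearts had 1379, 1305 and 1283 CPM, also below every wild-type heart, a difference that did not pass (−0.27 ± 0.10, adjusted p = 0.259). In the remaining embryo Δ19 had 918, 837 and 752 CPM, against 978, 1031 and 950.2 CPM in wild type, without overlap, which passed in DESeq2 and not in edgeR (−0.24 ± 0.07, adjusted p = 0.0601). Tail buds spread from 452 to 576 CPM over the mutants, against 546, 560.0 and 509.8 CPM in wild type, and no mutant passed. The region of 5173 bases is the longest among the 10 genes, with its miR-17 match at chr6:127129340-127129346 and its 8-base miR-19 match at chr6:127128823-127128830.

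Ccnd3 encodes cyclin D3 (ENSMUSG00000034165, chr17:47505051-47599691, plus strand), the D cyclin best known for its part in the divisions of red cell precursors and lymphocytes. It was lower in 6 of its 21 mutant comparisons and higher in 0, with the full knockout lower in all 3 tissues. Knockout tail buds had 85.6, 89.4 and 92.4 CPM and Δ17,18,92 tail buds 87.8, 96.7 and 102 CPM, against 128, 125 and 123 CPM in wild type. Both lay wholly below wild type, with log2 fold changes of −0.49 ± 0.06 in the knockout (adjusted p = 1.07e-05) and −0.39 ± 0.06 in Δ17,18,92 (adjusted p = 0.000273). Hearts had 156, 154 and 160.0 CPM in the knockout, against 185, 183 and 181 CPM in wild type, again without overlap (−0.22 ± 0.04, adjusted p = 0.003). The remaining embryo had 98.1, 94.9 and 97.1 CPM in the knockout, 104 and 99.0 CPM in Δ17,18,92 and 116, 110.4 and 103 CPM in Δ19, against 126, 126 and 119.8 CPM in wild type. The 3 groups lay below wild type, at −0.36 ± 0.05 in the knockout (adjusted p = 2.02e-06), −0.29 ± 0.05 in Δ17,18,92 (adjusted p = 0.000384) and −0.18 ± 0.05 in Δ19 (adjusted p = 0.0314). The Δ19 call ended without wild-type replicate 1 (0.143) or 2 (0.112), Δ19 replicate 2 (0.0701) or 3 (0.141), and with only the 2 groups (0.102); the other 5 held in every fit with 1 library left out.

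The primitive erythroid list, with 7 of 7 genes found and none at 0, was lower in the tail bud groups called for Ccnd3. Its sum was 790 to 3479 CPM in the knockout and 1489 to 3028 CPM in Δ17,18,92, against 3737 to 5626 CPM in wild type. It overlapped between groups in heart (1110 to 1464 CPM in the knockout, 962 to 2757 CPM in wild type) and, for the knockout (2496 to 3040 CPM) and Δ19 (3096 to 5142 CPM), in the remaining embryo (2629 to 3912 CPM in wild type), where Ccnd3 was also lower. Ccnd3 in tail buds of Δ18, Δ19 and Δ17,18 also lay wholly below wild type, with means of 114, 110.3 and 109.8 CPM against 125. Of these, edgeR called none and DESeq2 called Δ17,18. There the median log2 fold change of the erythroid genes was above 0, at 0.56, 0.44 and 0.40. No gene of the list passed in any tail bud comparison with wild type. The part of this list in the Ccnd3 values was not tested. A processed pseudogene, Ccnd3-ps on chromosome 4, has a median of 248 counts beside 2655 for Ccnd3, and how reads shared by both were counted is not given in the sources used here. With the counts of both summed, the 9 Ccnd3 results that passed kept their calls, for example −0.49 in the knockout tail bud. Bysl, on the opposite strand, overlaps the end of Ccnd3 (median 2058 counts).

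**Figure D3:**
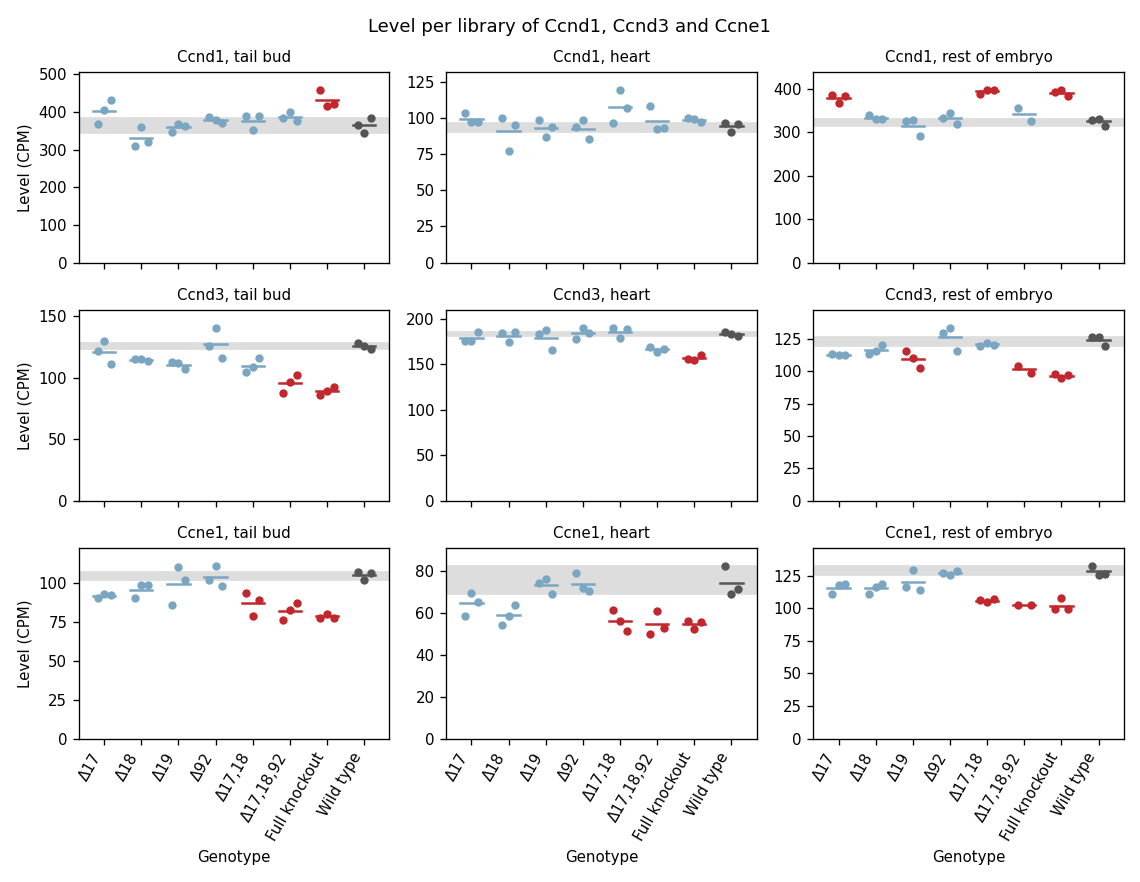
Level in CPM of Ccnd1, Ccnd3 and Ccne1 in each library, by tissue, with the mutants left of wild type. Points are libraries, lines are group means, the grey band is the range of wild type, and red marks groups with an adjusted p under 0.05 (edgeR). Ccne1 lies below the wild-type band in Δ17,18, Δ17,18,92 and the full knockout of every tissue. It also lies below that band, without red, in Δ17 and Δ18 of tail bud and the remaining embryo and in Δ18 hearts.

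Ccne1 encodes cyclin E1 (ENSMUSG00000002068, chr7:38097984-38107534, minus strand). It was the gene of the 10 with the most calls, lower in 9 of 21 mutant comparisons and at a log2 fold change below 0 in all 21. The 9 were the full knockout, Δ17,18 and Δ17,18,92 in each tissue. Tail buds had 77.8, 80.3 and 77.7 CPM in the knockout, 93.4, 78.7 and 89.1 CPM in Δ17,18 and 76.1, 82.8 and 87.1 CPM in Δ17,18,92, against 107, 102 and 107 CPM in wild type. All 9 mutant libraries lay below wild type, with −0.42 ± 0.07 in the knockout (adjusted p = 0.000363), −0.27 ± 0.07 in Δ17,18 (adjusted p = 0.0218) and −0.36 ± 0.07 in Δ17,18,92 (0.00284). Hearts had 55.9, 52.2 and 55.3 CPM in the knockout, 61.0, 56.0 and 51.4 CPM in Δ17,18 and 49.9, 60.6 and 52.5 CPM in Δ17,18,92, against 82.3, 68.8 and 71.1 CPM in wild type. The groups again did not overlap wild type, with −0.44 ± 0.08 in the knockout (0.0022), −0.40 ± 0.08 in Δ17,18 (0.0134) and −0.45 ± 0.08 in Δ17,18,92 (0.00318). The remaining embryo had 99.2, 108 and 99.5 CPM in the knockout, 106, 105 and 107 CPM in Δ17,18 and 102 and 103 CPM in Δ17,18,92, against 133, 126 and 127 CPM in wild type. Here too no library overlapped, with −0.33 ± 0.04 in the knockout (2.81e-06), −0.28 ± 0.04 in Δ17,18 (8.82e-05) and −0.32 ± 0.05 in Δ17,18,92 (3.41e-05). The knockout calls held in every fit with 1 library left out, in all 3 tissues.

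Of these calls, that of Δ17,18 in tail bud ended without its replicate 2 (0.139) or 3 (0.0567), without wild-type replicate 3 (0.0858) and with only the 2 groups (0.164). That of Δ17,18 in heart ended without its replicate 2, the library far from its mates (0.0622), its replicate 3 (0.0907) or wild-type replicate 1 (0.111), and with only the 2 groups (0.0511). Fitted with only the 2 groups, Δ17,18,92 in tail bud stood at an adjusted p of 0.061. Among the single-family alleles Ccne1 in the heart of Δ18 was −0.34 ± 0.08, with 54.0, 58.3 and 63.5 CPM against 82.3, 68.8 and 71.1 CPM in wild type and no overlap, and did not pass (adjusted p = 0.399). In the remaining embryo Δ17 and Δ18 were at −0.15 and −0.16 (adjusted p = 0.0936 and 0.109). Both lay wholly below wild type there and in tail bud, where they averaged 92.0 and 96.0 CPM against 105 CPM and did not pass. Δ92 stayed between −0.017 and −0.013 over the 3 tissues.

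Ccne2 encodes cyclin E2 (ENSMUSG00000028212, chr4:11191351-11204779, plus strand), the close relative of cyclin E1, and moved in both directions. It was lower in Δ19 in tail bud and the remaining embryo and higher in the full knockout and Δ17,18,92 in the rest. Δ19 tail buds had 52.3, 56.4 and 55.2 CPM, against 66.2, 67.8 and 85.1 CPM in wild type. They lay below wild type (−0.41 ± 0.08, adjusted p = 0.00795), a call that ended without wild-type replicate 3 (0.0559), without Δ19 replicate 1 (0.0581) and with only the 2 groups (0.418). The remaining embryo had 75.1, 79.5 and 81.8 CPM in the knockout, 87.4 and 91.4 CPM in Δ17,18,92 and 53.3, 62.4 and 64.8 CPM in Δ19, against 69.0, 68.8 and 69.8 CPM in wild type. The knockout (0.19 ± 0.05, adjusted p = 0.0267) and Δ17,18,92 (0.37 ± 0.06, adjusted p = 8.09e-05) lay above wild type, and Δ19 (−0.20 ± 0.05, adjusted p = 0.0414) below it. The Δ17,18,92 call held in every fit with 1 library left out. The knockout call ended without any of wild-type replicates 1 to 3 (0.0748, 0.0928 and 0.0635) or without knockout replicate 2 (0.079) or 3 (0.128). The Δ19 call held in 9 of 23 such fits, with adjusted p = 0.385 without Δ19 replicate 1, 0.116, 0.0952 and 0.13 without wild-type replicates 1, 2 and 3, 0.18 with only the 2 groups, and 0.0502 to 0.0566 in the 10 other fits that lost it. Those 10 left out knockout replicate 2, Δ17 replicate 3, Δ92 replicate 3, Δ19 replicate 2, or any replicate of Δ18 or Δ17,18. Knockout tail buds, at 76.0, 74.0 and 68.4 CPM, overlapped wild type. Its miR-92 match lies at chr4:11203590-11203596, and the gene overlaps Ints8 on the opposite strand (median 2539 counts beside 1479), whose reads cannot be told apart without knowing the strand setting.

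Cdkn1a, which encodes p21 and is a target of p53 (ENSMUSG00000023067, chr17:29090976-29100727, plus strand), was higher in the remaining embryo of both combined alleles. It had 12.3, 13.7 and 14.7 CPM in Δ17,18 and 15.9 and 14.3 CPM in Δ17,18,92, against 9.59, 9.62 and 10.5 CPM in wild type. Neither group overlapped wild type, and the log2 fold changes were 0.45 ± 0.11 in Δ17,18 (adjusted p = 0.011) and 0.60 ± 0.11 in Δ17,18,92 (adjusted p = 0.000962). The Δ17,18 call ended without wild-type replicate 1 (0.0609) or Δ17,18 replicate 2 (0.0528) or 3 (0.0704). In the same tissue the knockout libraries, at 11.7, 11.8 and 13.4 CPM, and those of Δ17, at 14.3, 11.1 and 12.3 CPM, also lay above wild type without passing (0.31 ± 0.11, adjusted p = 0.0832, and 0.33 ± 0.11, adjusted p = 0.15), and Δ19, at 8.51, 7.47 and 7.00 CPM, lay below it (−0.37 ± 0.11, adjusted p = 0.0869). Tail buds and hearts overlapped wild type in every genotype but Δ19 hearts, which lay below (−0.46 ± 0.25, adjusted p = 0.523), and no genotype passed there. Other targets of p53 were followed with a list of 12 genes, 11 of them tested. Of these 0 passed in the knockout of any tissue (edgeR), with 1, 1 and 3 at an unadjusted p under 0.05 in tail bud, heart and rest, and DESeq2 called 1, 0 and 0. In the remaining embryo of Δ17,18 and Δ17,18,92, the groups called for Cdkn1a, 0 of the 11 passed as well (edgeR). The median log2 fold changes of the list there were 0.0084 and −0.0063. With the loss of the miR-17 family the genes of this list called higher numbered 1 of 11 for tail bud, 1 for heart and 2 for the rest, and 0 were lower. Of all genes 5.44%, 3.61% and 7.49% were called for this term in either direction. Ccng1 was higher in tail bud (0.47 ± 0.07, adjusted p = 0.000129) and the remaining embryo (0.47 ± 0.07, adjusted p = 0.000224), and Eda2r was higher in the rest (0.50 ± 0.12, adjusted p = 0.0131). The gene called in heart, where no genotype passed for Cdkn1a, was Perp (0.28 ± 0.06, adjusted p = 0.00395). Their part in the Cdkn1a values was not tested. The miR-17 match shown above lies at chr17:29099829-29099835.

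Cdkn1b, which encodes p27 (ENSMUSG00000003031, chr6:134920401-134925513, plus strand), and Cdkn1c (ENSMUSG00000037664, chr7:143458339-143461050, minus strand) passed in 0 of 21 mutant comparisons each (edgeR). At an unadjusted p under 0.05 Cdkn1b had 4 of 21 and Cdkn1c 1, and DESeq2 called Cdkn1b in the heart of Δ19 and Cdkn1c nowhere. Cdkn1b stood at 53.4, 60.2 and 58.6 CPM in knockout hearts, against 53.4, 53.6 and 52.3 CPM in wild type, and the groups overlapped (0.11 ± 0.06, adjusted p = 0.356). Its largest log2 fold changes were in Δ19, at 65.7, 58.9 and 60.7 CPM in heart (0.22 ± 0.06, adjusted p = 0.117) and 36.8, 29.0 and 30.5 CPM in tail bud, against 25.6, 28.3 and 28.5 CPM in wild-type tail buds (0.23 ± 0.10, adjusted p = 0.224), and neither group overlapped wild type. Cdkn1c stood at 924, 948 and 1003 CPM in knockout hearts, against 1011, 1083 and 1062 CPM in wild type. The knockout hearts lay below the wild-type hearts, and the difference did not pass (−0.13 ± 0.09, adjusted p = 0.489). Over all genotypes and tissues its log2 fold changes ran from −0.17 to 0.18, and those of Cdkn1b from −0.11 to 0.23.

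Rbl1, which encodes p107 (ENSMUSG00000027641, chr2:157145893-157204534, minus strand), and Rbl2, which encodes p130 (ENSMUSG00000031666, chr8:91070057-91123844, plus strand), were both higher in Δ17,18 and Δ17,18,92 tail buds. Rbl1 had 69.0, 74.5 and 76.4 CPM in Δ17,18 and 80.6, 75.3 and 68.8 CPM in Δ17,18,92, against 58.8, 64.2 and 58.8 CPM in wild type. Both groups lay above wild type, at 0.27 ± 0.08 in Δ17,18 (adjusted p = 0.0292) and 0.30 ± 0.08 in Δ17,18,92 (adjusted p = 0.0166). Rbl2 had 12.5, 15.6 and 15.5 CPM in Δ17,18 and 15.5, 13.9 and 13.8 CPM in Δ17,18,92, against 9.05, 11.2 and 7.35 CPM in wild type. These too did not overlap, and the log2 fold changes of 0.64 ± 0.15 in Δ17,18 (adjusted p = 0.00945) and 0.63 ± 0.14 in Δ17,18,92 (adjusted p = 0.00966) were the largest among the 210 mutant comparisons of the 10 genes. In the knockout, Rbl2 tail buds at 12.3, 13.0 and 12.4 CPM lay above wild type (0.43 ± 0.15, adjusted p = 0.0566; 0.0275 in DESeq2), and Rbl1 at 63.6, 70.6 and 69.8 CPM overlapped it (0.17 ± 0.08, adjusted p = 0.161). No heart or rest of embryo comparison passed for either gene. Rbl2 stood above 0 in 20 of its 21 mutant comparisons and Rbl1 in 19, and Rbl2 rests on a median of 274 counts a library.

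All 4 pocket protein calls ended without wild-type tail bud replicate 3, with adjusted p = 0.117 and 0.0683 for Rbl1 and 0.056 and 0.0565 for Rbl2 in Δ17,18 and Δ17,18,92, and with only the 2 groups fitted (0.157, 0.147, 0.153 and 0.116 in the same order). The Δ17,18 calls also ended without its replicate 2 (0.107 for Rbl1, 0.0595 for Rbl2) or 3 (0.116 and 0.0501), and Rbl1 without wild-type replicate 1 (0.0628). Those of Δ17,18,92 ended without its replicate 1 (0.114 for Rbl1, 0.0555 for Rbl2), and Rbl1 without its replicate 2 (0.0566). The miR-17 matches lie at chr2:157147477-157147483 in Rbl1 and at chr8:91123151-91123158 and chr8:91123212-91123218 in Rbl2. Rbl2 overlaps Aktip on the opposite strand, which has the higher median count (643 beside 274), so its reads are uncertain without the strand setting. Rbl1 overlaps a processed pseudogene, Gm14277 (median 419 counts beside 1308).

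**Figure D4:**
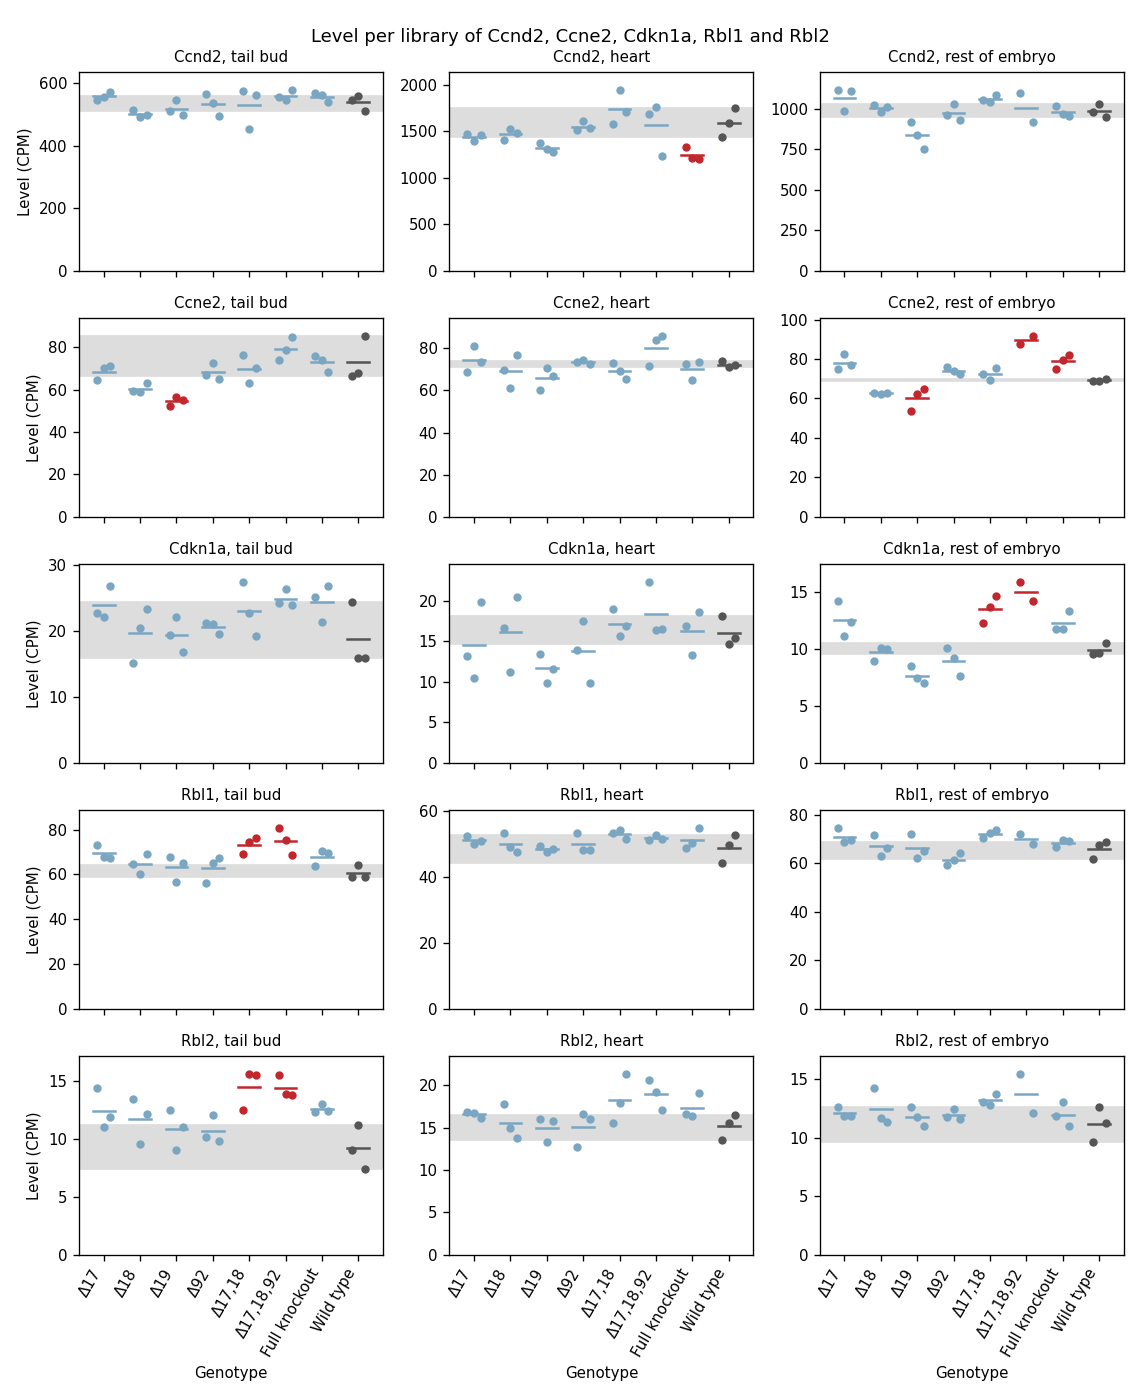
Level in CPM of Ccnd2, Ccne2, Cdkn1a, Rbl1 and Rbl2 in each library, by tissue, with the mutants left of wild type. Points are libraries, lines are group means, the grey band is the range of wild type, and red marks groups with an adjusted p under 0.05 (edgeR). Ccne2 shows groups on both sides of the wild-type band in the remaining embryo, and the red groups of Rbl1 and Rbl2 are in tail bud.

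Because the alleles cross the 4 families, the change that goes with the loss of each family was estimated over all libraries of a tissue, with the other 3 families held fixed. Of the 120 such terms of the 10 genes 18 passed, 7 higher and 11 lower. Loss of the miR-17 family changed 3 of 10 genes in tail bud (2 higher, 1 lower) against 5.44% of all genes, 5 in the remaining embryo (4 higher, 1 lower) against 7.49% and 0 in heart against 3.61%. Loss of miR-18 changed 1 of 10 in each tissue, always lower: Ccnd3 in tail bud (against 0.323% of all genes), Ccne1 in heart (against 0.0896%) and Ccne1 in the rest (against 0.748%). Loss of miR-19 changed 1 in tail bud (Ccnd3) against 5.33%, 1 in heart (Ccnd2) against 4.37% and 4 in the rest (Ccnd2, Ccnd3, Ccne2 and Cdkn1a) against 6.59%, all 6 lower. Loss of miR-92 changed 1 in the rest (Ccne2, higher) against 5.18%, 0 in tail bud against 3.66% and 0 in heart against 1.58%. For the 3 combinations at 0, the edgeR fits gave 3 genes at an unadjusted p under 0.05 for miR-17 in heart, and 2 each for miR-92 in tail bud and heart, and DESeq2 called 0. The 5 tail bud calls came to 8 without wild-type replicate 3 and to 3 without Δ17 replicate 1, Δ18 replicate 2 or Δ92 replicate 1, and the 2 heart calls to 1 without knockout replicate 2 or 3.

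Of the genes past the threshold for the miR-17 term, Ccne1 was the one that was lower, in tail bud (−0.18 ± 0.04, adjusted p = 0.00408) and the remaining embryo (−0.13 ± 0.03, adjusted p = 0.000682). Ccnd1 was higher in tail bud (0.18 ± 0.04, adjusted p = 0.00162) and the rest (0.21 ± 0.03, adjusted p = 3.43e-05), as was Rbl1 (0.16 ± 0.04, adjusted p = 0.0309 in tail bud, and 0.11 ± 0.03, adjusted p = 0.0212 in the rest). Cdkn1a, with the largest family term of the 10 genes, was higher in the rest (0.48 ± 0.06, adjusted p = 1.69e-06), and so was Ccne2 (0.24 ± 0.03, adjusted p = 2.85e-06). Of the 5 genes that hold a miR-17 match, Ccnd1, Cdkn1a and Rbl1 were thus called higher in at least 1 tissue, and Ccnd2 and Rbl2 were not called, at 0.094, 0.0014 and 0.11 for Ccnd2 and 0.26, 0.17 and 0.049 for Rbl2 in tail bud, heart and rest (adjusted p from 0.0779 to 0.997). DESeq2 called Rbl2 and also Cdkn1a in tail bud and Ccnd2 in the rest higher for this term. Ccne2, called higher, holds none, and neither does Ccne1. The Rbl1 calls ended without Δ17 replicate 1 (0.125 in tail bud, 0.0849 in the rest) or Δ18 replicate 2 (0.108 and 0.0824), that in tail bud also without Δ18 replicate 1 (0.0516) or Δ92 replicate 1 (0.0548), and that in the rest without Δ18 replicate 3 (0.0524). The other 6 calls of this term held in every such fit.

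The miR-18 term was lower in Ccne1 in heart (−0.28 ± 0.05, adjusted p = 0.00589) and the remaining embryo (−0.14 ± 0.03, adjusted p = 0.00211), with −0.12 ± 0.04 in tail bud (adjusted p = 0.21), and in Ccnd3 in tail bud (−0.18 ± 0.04, adjusted p = 0.0357). The Ccne1 call in heart ended without Δ18 replicate 1 (0.0506) or 2 (0.0533). That of Ccnd3 ended without any of Δ18 replicates 1 to 3 (0.09, 0.0795 and 0.102), Δ17 replicate 1 (0.0558) or 2 (0.177) or Δ92 replicate 1 (0.06). Loss of miR-19 went with lower Ccnd3 in tail bud (−0.20 ± 0.04, adjusted p = 0.00206) and the rest (−0.18 ± 0.04, adjusted p = 0.00298) and lower Ccnd2 in heart (−0.28 ± 0.07, adjusted p = 0.0189) and the rest (−0.17 ± 0.04, adjusted p = 0.00958). For the loss of miR-19 DESeq2 also called Ccnd3 in heart, which edgeR did not. The Ccnd2 region carries an 8-base miR-19 match and that of Ccnd3 carries none. The Ccnd2 heart call ended without knockout replicate 2 (0.0584) or 3 (0.063).

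In the remaining embryo Ccne2 and Cdkn1a had family terms past the threshold in both directions (edgeR). Ccnd2 had 0.11 for miR-17 and −0.17 for miR-19 there, of which edgeR called the second and DESeq2 both. Ccne2 was higher with the loss of miR-17 and of miR-92 (0.21 ± 0.03, adjusted p = 2.74e-05) and lower with the loss of miR-19 (−0.13 ± 0.03, adjusted p = 0.0121). Cdkn1a was higher with the loss of miR-17 and lower with the loss of miR-19 (−0.23 ± 0.07, adjusted p = 0.0294). Of these, the miR-19 call of Ccne2 ended without Δ19 replicate 1 (0.105), and that of Cdkn1a without knockout replicate 1 (0.0633) or 2 (0.0653), Δ19 replicate 2 (0.0779) or 3 (0.088) or Δ17,18,92 replicate 1 (0.0601). In tail bud the Ccne2 terms had the same signs, at 0.16, −0.17 and 0.16 for miR-17, miR-19 and miR-92, and none passed (adjusted p = 0.158, 0.111 and 0.133). The Ccne2 region holds a miR-92 match and no miR-17 or miR-19 match. Cdkn1b and Cdkn1c passed in none of their 12 terms.

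**Figure D5:**
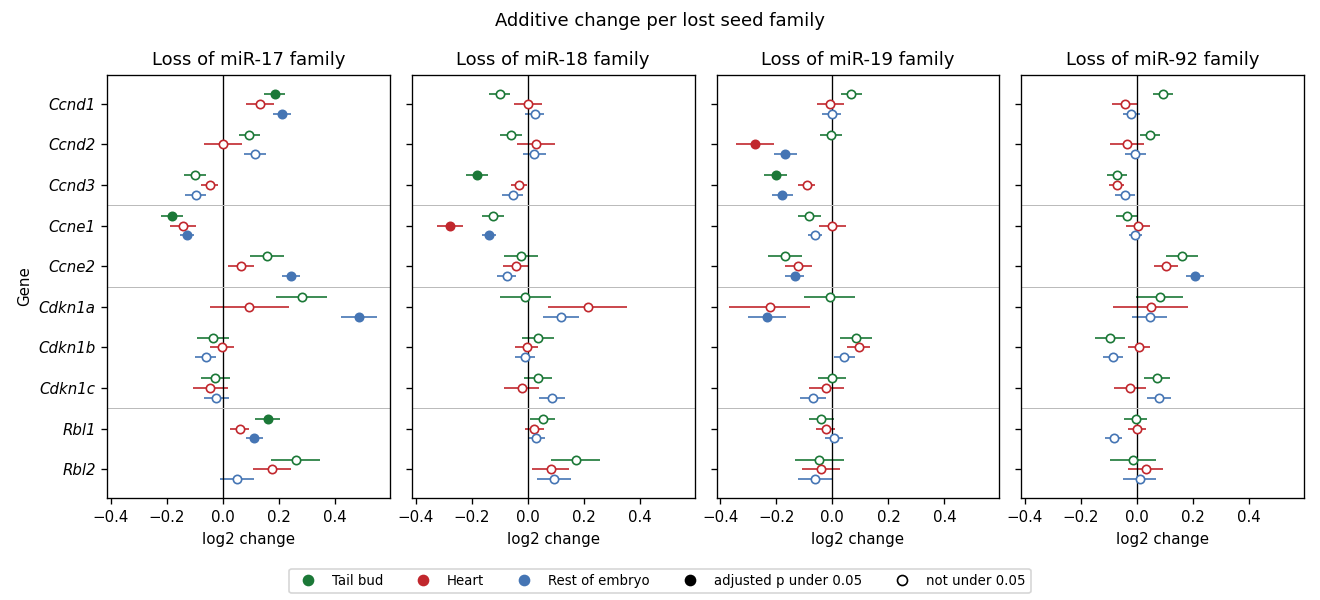
Log2 change that goes with the loss of each seed family (panels) for each gene (rows), estimated over all libraries of a tissue with the other families held fixed. Points are estimates and bars are 1 SE, colours are tissues, and filled points have an adjusted p under 0.05 (edgeR). In the miR-17 panel the filled points of Ccne1 are left of 0 and those of Ccnd1, Ccne2, Cdkn1a and Rbl1 right of it, and every filled point of the miR-19 panel is left of 0.

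Whether the 4 terms describe the genotypes was tested by what they leave of the 8 genotype means. A departure passed in 0 of 10 genes in tail bud (0.0176% of all genes), 0 in heart (0.0597%) and 0 in the remaining embryo (0.103%) in edgeR, with 1, 4 and 2 genes at an unadjusted p under 0.05. DESeq2 called 0 in tail bud and heart and 2 in the rest, Ccnd1 (adjusted p = 0.0136) and Ccnd3 (0.0418), beside 73 genes of the whole table. The edgeR values there were 0.153 for Ccnd1 and 0.131 for Ccnd3, and Ccnd3 passed without Δ92 replicate 3 (0.0143). Whether the knockout effect differs between tissues was tested over the 18 wild-type and knockout libraries, without use of their replicate numbers. In edgeR 0 of 10 genes passed, where 0.0399% of 17548 genes did, with 3 at an unadjusted p under 0.05, the D cyclins Ccnd1, Ccnd2 and Ccnd3. DESeq2, which called 97 genes of the whole table, called 2 of them, Ccnd2 (adjusted p = 0.00318, beside 0.128 in edgeR) and Ccnd3 (0.0362, beside 0.231), and in edgeR Ccnd2 passed without wild-type tail bud replicate 3 (0.0388). The knockout values of Ccnd2 were 0.047 for tail bud, −0.36 for heart and −0.0091 for the rest.

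The partners of these genes were followed with a list of 26 other genes of the G1/S pathway, 25 of them in the table. In the full knockout 3 of 24 tested rose and 3 fell in tail bud, 1 of 23 rose and 1 fell in heart, and 2 of 23 rose and 1 fell in the remaining embryo, with median log2 fold changes of 0.029, −0.0077 and 0.013. Of all genes 10.4%, 3.91% and 6.66% passed in these 3 comparisons, in either direction. The summed level of the 25 genes, scaled to the library totals alone, was 2663 to 2709 CPM in knockout tail buds. Wild type had 2756 to 3007 CPM, without overlap, and the sums overlapped between the groups in heart and the rest. E2f1, an activating E2F, rose in tail bud (0.37 ± 0.06, adjusted p = 0.000339), heart (0.35 ± 0.06, adjusted p = 0.000351) and the rest (0.33 ± 0.05, adjusted p = 1.16e-05). Its DNA-binding partner Tfdp1 fell in tail bud (−0.34 ± 0.05, adjusted p = 5.23e-05) and the rest (−0.20 ± 0.04, adjusted p = 0.000739). In tail bud Lin9, a subunit of the complex through which Rbl1 and Rbl2 silence cell cycle genes, rose (0.35 ± 0.08, adjusted p = 0.00852) and E2f3 rose (0.19 ± 0.06, adjusted p = 0.0351), while the F-box protein gene Skp2, whose product marks p27 for degradation, fell in heart (−0.18 ± 0.05, adjusted p = 0.0339) and E2f5, the partner of Rbl2, rose in the rest (0.18 ± 0.05, adjusted p = 0.0224). The family terms of E2f5 were higher with the loss of miR-17 in tail bud (0.20 ± 0.03, adjusted p = 5.42e-05) and the rest (0.25 ± 0.03, adjusted p = 6.24e-08). Fbxw7, the subunit of the ubiquitin ligase that degrades cyclin E, was higher with the loss of miR-92 in tail bud (0.31 ± 0.04, adjusted p = 3.00e-06) and the rest (0.29 ± 0.03, adjusted p = 4.68e-07) and lower with the loss of miR-17 in tail bud (−0.16 ± 0.04, adjusted p = 0.0198) and of miR-19 in the rest (−0.17 ± 0.04, adjusted p = 0.00436). Of 10 genes of S phase, G2 and mitosis, Birc5 (−0.25 ± 0.06, adjusted p = 0.00618) and Pcna (−0.30 ± 0.09, adjusted p = 0.0396) fell in the knockout tail bud, and 0 passed in heart or the rest (edgeR), with 3 and 2 genes at an unadjusted p under 0.05 and 0 called by DESeq2. Their sum, scaled to the library totals alone, was 3137 to 3275 CPM in the knockout remaining embryo. Wild type had 3323 to 3363 CPM there, and the sums overlapped in the other tissues.

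The genes whose pattern over the 24 group means was most like a member's were found among 10267 genes after the mean of each tissue was removed. These correlations describe the 24 means and carry no test. The genes were Sh3bp2 and Rab11fip1 for Ccnd1 (Pearson r = 0.905 and 0.868), Prkar2a and Psmf1 for Ccnd2 (0.776 and 0.757), Rad9a and Tbkbp1 for Ccne1 (0.908 and 0.885) and Ate1 and Rad54b for Rbl1 (0.903 and 0.898). For Ccnd3 they were its pseudogene Ccnd3-ps (0.956), which may share its reads, and 1700037H04Rik (0.877). Among the 10 genes themselves the 3 lowest correlations over the same 24 means were those of Ccne1, with r = −0.769 to Rbl2, −0.720 to Cdkn1a and −0.703 to Rbl1, and the highest was that of Rbl1 with Rbl2, at 0.857.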

How the data were processed

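The table holds whole-number read counts per gene for 71 libraries, deposited by the authors without normalization. The submitters' processing notes name mm9 and NCBIM37 as builds, and STAR 2.3.0, featureCounts (Subread 1.4.2) and SAMtools 0.1.14 as tools. The release of the annotation, the strand setting and the handling of reads that map to several places are not given in the sources used here. Gene symbols were matched by Ensembl ID to the GENCODE annotation of GRCm38 (32897 of 37620 IDs), and coordinates are of that later build. Levels of single genes in CPM are the deposited counts divided by TMM-scaled library sizes, a step done here. Summed CPM of the gene lists were scaled to the library totals alone, without TMM factors.

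All libraries of a tissue were fitted together with edgeR 4.0.16 and limma 3.58.1 in R 4.3.3 (TMM factors, filterByExpr with genotype as the group, robust quasi-likelihood F tests, Benjamini-Hochberg adjustment over all genes tested, threshold 0.05). The fits gave each mutant against wild type, 4 additive terms for the seed families a genotype lacks, and the departure of the 8 genotype means from those terms with 3 degrees of freedom. The 9 wild-type libraries gave the tissue comparisons, and the 18 wild-type and knockout libraries the interaction of knockout and tissue. The SE of a log2 value is its absolute size divided by the square root of its F statistic. Alternatives were DESeq2 1.42.0, RLE factors, no filter on low counts, the replicate number as a block, only the 2 groups compared, and each library left out in turn (98 refits). The replicate numbers of the titles did not pair libraries across genotypes within a tissue (mean correlation of same-numbered deviations −0.029 for tail bud, −0.043 for heart and −0.019 for the rest). They paired the wild-type libraries across tissues, where all 9 same-numbered pairs correlated, from 0.118 to 0.560. All 9 such pairs of the knockout were positive as well. Those of tail bud with the rest ran from 0.105 to 0.211 and those with heart from 0.058 to 0.244. Not every pair thus passed 0.1, and on that ground the knockout libraries were not taken as paired. Differently numbered knockout libraries averaged −0.092 (tail bud with heart), −0.077 (tail bud with the rest) and −0.041 (heart with the rest). Over all genotypes same-numbered libraries averaged 0.309, 0.349 and 0.277 in the same order. The tests of knockout effect by tissue therefore use no pairing within genotype. The wild-type tissue differences, SE and counts come from fits that do not use the pairing. With the replicate number as a block the 22 calls between wild-type tissues came to 24. The 70 pairs of replicates within a group all differed by more than sampling noise (chi-square per degree of freedom of at least 2.52), and p-values measure the spread between these libraries.

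The members and gene lists were chosen with earlier results of these data known. All 10 members are named. Values per library are given for every genotype past the threshold and its wild type, and other genes are named only from the lists, up to 4 per comparison with the smallest p, or as the 2 most alike for members with a family term past the threshold in 2 or more tissues.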

Additional observations from a re-analysis of the deposited data

How the results depend on the processing

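Of the 48 calls against wild type or for a family term, 28 held in every fit that left out 1 library and 27 in every alternative run; of the 22 calls between wild-type tissues 19 held in all. DESeq2, RLE factors and no filter on low counts each kept 70 of 70 calls, the replicate block 69 of 70, and fits of only the 2 groups compared 19 of 30. With 1 library left out, the number of calls against wild type ranged from 5 to 15 in tail bud (11 with all libraries), 3 to 5 in heart (5) and 10 to 15 in the remaining embryo (14). The 5 family term calls in tail bud ranged from 3 to 8, the 2 in heart from 1 to 3 and the 11 in the rest from 10 to 12, and the 22 wild-type tissue calls from 20 to 24. The lowest tail bud count came without wild-type replicate 3. Calls of departure from additivity stayed at 0 in tail bud and heart and ranged from 0 to 1 in the rest, as did those of knockout effect by tissue.

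Tail bud had 3 calls when only the 2 groups were fitted, where calls over all genes were fewer too (198 against 1776 in the full knockout, 7 against 1414 in Δ17,18). Heart had 8 without a filter on low counts, where calls over all genes were more (630 against 68 in Δ19, 749 against 187 in Δ17,18). Departure from additivity gave 2 calls in heart without a filter (Ccnd2 and Cdkn1c), and 2 in the remaining embryo both without a filter and with DESeq2 (Ccnd1 and Ccnd3). Over all genes the departures numbered 1011 against 10 in heart without a filter, and 521 without a filter and 73 with DESeq2 against 18 in the rest. Knockout effect by tissue gave 2 calls with DESeq2 and 1 without a filter (Ccnd2), where 97 and 44 genes of all were called, against 7. The cause was not tested. Rbl2 and Cdkn1a had the fewest counts, with medians of 274 and 335, and their SE reached 0.15 and 0.26 (log2), while that of Ccnd3 stayed at 0.063 or less. The parts of depth and of the spread between libraries in these SE were not tested.

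With the replicate block, the calls against wild type numbered 11 for tail bud, 4 for heart and 15 for the rest. Those of family terms numbered 5, 2 and 11, those between wild-type tissues 24, and those of departure and of knockout effect by tissue 0. For knockout effect by tissue the block joins wild-type and knockout libraries of the same number. Its 0 is therefore not that of a test paired within genotype. The 1 call the block lost was Ccnd2 in the knockout heart (adjusted p = 0.0502), where the numbers do not pair the libraries. In wild-type tissues, where the numbers pair the libraries, the block changed no call other than the 2 given with the results.

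Alternatives were run gene by gene for the calls and for every full knockout value. Among these, the directions that turned were those of full knockout values that did not pass. Ccne2 in tail bud, at −0.00052, stood at 1.40e-05 with RLE factors, 0.0091 without a filter, 0.0023 with the replicate block, and from −0.062 to 0.12 with 1 library left out. The other ranges with 1 library left out were −0.051 to 0.052 for Cdkn1b and −0.061 to 0.17 for Cdkn1c in tail bud, −0.095 to 0.15 for Cdkn1a and −0.071 to 0.017 for Ccne2 in heart, and −0.037 to 0.022 for Ccnd2 in the remaining embryo.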
